A study of Mus musculus with 2 samples.

Results

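The 10 genes described here are members of the NRF2 pathway of antioxidant defence. They are the transcription factor gene Nfe2l2, its inhibitor Keap1, its DNA-binding partner Mafg, and the target genes Hmox1, Nqo1, Txnrd1, Srxn1, Prdx1, G6pdx and Gclm. The set is a list of names, chosen with earlier results of these data known. All 10 were found by symbol among the 32285 genes counted. They were measured by single-cell RNA sequencing in myeloid-derived suppressor cells (MDSCs), immature myeloid cells with suppressive activity. The cells were cultured from the marrow of female mice of strain C57BL/6, 10 weeks old, with 50 ng/mL each of the cytokines GM-CSF and IL-6 over 4 days. Dabrafenib (DAB), a RAF kinase inhibitor, was added at 1.5 µmol/L to the treated culture, and the control culture had its solvent, DMSO. Both groups carried no gene deletion and received the same cytokines. Each condition is represented by a single library, and how many mice went into it is not stated in the sources used here.

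NRF2, the product of Nfe2l2, is a transcription factor that is held at a low level when KEAP1 presents it to a CUL3 ubiquitin ligase for degradation. Oxidants and electrophiles modify KEAP1, and NRF2 then accumulates, pairs with a small MAF protein such as MAFG and binds antioxidant response elements near genes of glutathione, thioredoxin, NADPH, quinone and haem metabolism. Much of the control of NRF2 is therefore at the protein level, which RNA counts do not measure. In myeloid cells the pathway is known for limiting oxidative damage, and haem oxygenase 1, encoded by Hmox1, is a typical product of macrophages that take up red cells.

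The filtered libraries held 9032 DMSO cells with 92320289 unique molecular identifiers (UMIs), each UMI standing for 1 captured RNA molecule, and 10476 DAB cells with 140075327 UMIs. The median depth was 7524.5 UMIs per DMSO cell and 9489 per DAB cell, and 152 cell barcodes occurred in both files. Levels are given as counts per 1e6 UMIs of the cells concerned (CPM). The 95% intervals reflect counting error and nothing else. As each condition had 1 library, no spread between cultures could be estimated, and no difference between DAB and DMSO was tested. A gene is called higher or lower in DAB where its log2 ratio of CPM, DAB over DMSO, is at least 0.5 in size and the interval of the ratio leaves out 0. Cells were clustered with the members and the other NRF2 pathway genes left out of the clustering genes. Markers named 15 of 27 clusters, mainly as granulocyte-like and monocyte-like cells with smaller groups of macrophage-like, activated dendritic cell-like and B cell-like cells, and the 12 clusters without a name held 47.2% of DMSO and 42.5% of DAB cells. The MDSC label therefore covered a mixture of cells, and values over all cells combine the levels within each type with the share of that type. Fewer cells of a type and less RNA per cell cannot be told apart in such sums.

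The stretches of DNA just upstream of the members are shown because NRF2 and MAFG are known to act there. RefSeq (GRCm38.p6) gave promoters, from 250 bases before to 50 after the start of transcription, for 9 of the 10 members. The antioxidant response element core, TGACNNNGC on either strand, lay in the promoters of 7 of these 9 genes and in those of 14% of all 27025 genes listed, or 12.4% of all 32851 promoters of the same length. The windows below are written in the direction of each gene, with the match in capitals.
Mafg: ctctgcaggaGCACGGTCAacccggcgag
Nfe2l2: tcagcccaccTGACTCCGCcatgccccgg
Gclm: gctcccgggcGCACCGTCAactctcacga
Prdx1: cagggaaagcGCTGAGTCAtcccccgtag
Srxn1: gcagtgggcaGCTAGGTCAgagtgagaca
Txnrd1: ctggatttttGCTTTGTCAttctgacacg
G6pdx: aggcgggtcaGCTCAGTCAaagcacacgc
These windows lie at chr11:120633751-120633779 for Mafg, chr2:75704885-75704913 for Nfe2l2, chr3:122245413-122245441 for Gclm, chr4:116685456-116685484 for Prdx1, chr2:152105542-152105570 for Srxn1, chr10:82859104-82859132 for Txnrd1 and chrX:74428919-74428947 for G6pdx. The match lay after the start of transcription in Srxn1 and before it in the other genes, and only 1 of the promoters listed for Txnrd1 held it. Among the other genes of the pathway lists described further on, 11 of 60 with a promoter held the core. The TPA response element of AP-1 factors, TGANTCA, which reads the same on both strands, was found in 2 of the 9 members, Prdx1 and Srxn1, and in 8.97% of all genes, or 7.81% of all promoters, and 1 of its matches in Prdx1 overlapped the antioxidant core. The amino acid response element of ATF4, TGATGNAA, was in no member and in 3.97% of all promoters. The palindromic Maf recognition element, which is longer, was in no member and in 0.00609% of all promoters. A match describes these letters and is not evidence that a factor binds there.

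Over all cells, Hmox1 and Prdx1 were lower in DAB and no member was higher. The 2 lower members of 10 stand beside 16.6% of all 16308 genes compared that were lower, and the 0 higher members beside 13.6% that were higher, so the number of members called lower was close to that of genes at large. The median log2 ratio of the members was 0.08, and that of all genes compared was -0.02. The members thus did not move in 1 direction, and 8 of 10 lay inside the limits for a call.

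**Figure D1:**
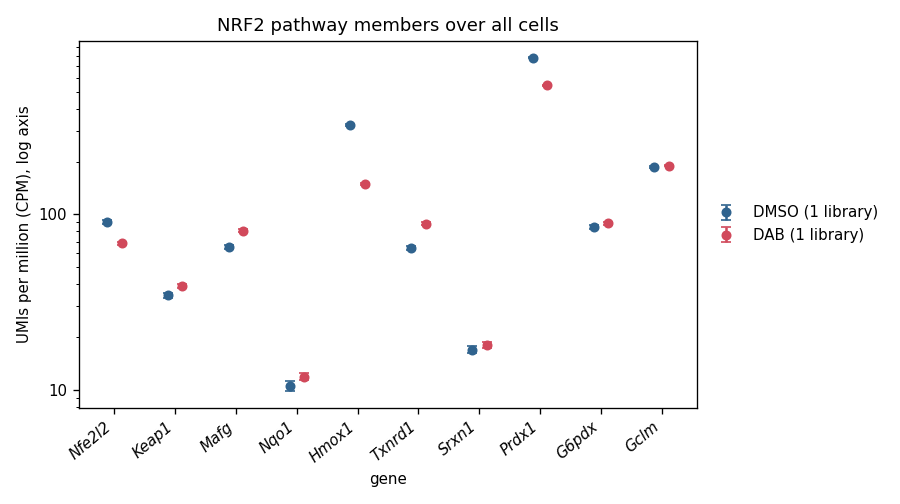
Level of each of the 10 members over all cells in the DMSO and the DAB library, in CPM on a log axis, with exact Poisson 95% intervals that cover counting error only. Hmox1 (323 in DMSO and 149 in DAB) and Prdx1 (779 and 544) show the widest gaps below DMSO, and Txnrd1 (64.2 and 88.5) and Mafg (65.2 and 80.9) lie above it. Heights of different genes are not compared, since capture differs between genes.

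Nfe2l2 (chr2:75675513-75704641, minus strand, GRCm38), which encodes NRF2, stood at 90.4 CPM in DMSO and 68.6 CPM in DAB, a log2 ratio of -0.40 (95% interval -0.44 to -0.35). This was below DMSO but did not reach the size set for a call. With equal weight for each cell the ratio was -0.02, and without chemokine-high and intermediate granulocyte-like cells it was -0.50 and called lower. The share of cells with a UMI after thinning to 1500 UMIs was 12.7% in DMSO and 13.7% in DAB, with overlapping intervals. By cell class, Nfe2l2 was called lower in 5 of 9 classes and higher in none, beside 8.25% to 18.7% of all genes lower by class. It was lower in 6 of 20 clusters, beside 12.6% of the values of all genes in these clusters. In mature monocyte-like cells, which express MHC class II genes, it stood at 78.0 CPM in DMSO and 43.2 CPM in DAB, a log2 ratio of -0.85 (-1.02 to -0.69). Macrophage-like cells gave 141 and 79.4 CPM (log2 ratio -0.82), and activated dendritic cell-like cells 111 and 61.9 CPM (-0.84). In granulocyte progenitor-like cells the levels were 70.3 and 42.5 CPM (-0.73), and in immature monocyte-like cells 100.3 and 69.6 CPM (-0.53). The lower levels in CPM were thus in monocyte-like, macrophage-like and dendritic cell-like cells and in progenitors, while the 3 classes of later granulocytes gave no call. Among these 5 classes, shares of cells after thinning had separate intervals only in immature monocyte-like cells, 14.7% in DMSO and 10.6% in DAB. Mature monocyte-like, macrophage-like and activated dendritic cell-like cells had lower shares in DAB with overlapping intervals. In granulocyte progenitor-like cells the share was higher in DAB, 7.93% and 9.98%, also with overlapping intervals. Mature PMN-like cells (polymorphonuclear, that is, late granulocytes) had 103 CPM in DMSO and 135 CPM in DAB, a log2 ratio of 0.39 (0.23 to 0.56). The calls in activated dendritic cell-like and immature monocyte-like cells were lost under other clusterings, with log2 ratios of -0.32 and -0.36 where the pathway genes took part in the clustering.

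Keap1 (chr9:21229730-21239361, minus strand), the adaptor that binds NRF2 for degradation, was at 34.6 CPM in DMSO and 38.9 CPM in DAB, a log2 ratio of 0.17 (0.11 to 0.23). It varied least of the 10 members among clusters, with an SD of 0.24 in log2(CPM + 10) over 40 values, 1 per library in each of 20 clusters. In DAB, its level by class ran from 34.1 CPM in chemokine-high granulocyte-like cells to 45.4 CPM in granulocyte progenitor-like cells. Keap1 was higher in DAB in intermediate granulocyte-like cells, which carry secondary granule genes, at 26.0 CPM in DMSO and 38.4 CPM in DAB (log2 ratio 0.56, 0.20 to 0.92), but the call was lost without alignment of the libraries (0.41) and with scaling by the median of ratios within the class (0.38). Its higher value in B cell-like cells rested on 9 UMIs in DMSO and 37 UMIs in DAB and was lost when doublets were kept.

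Mafg (chr11:120625117-120633600, minus strand) encodes a small MAF protein that has no activation domain of its own. The protein pairs with NRF2 to bind DNA and can also pair with the repressor BACH1. Over all cells the Mafg level was 65.2 CPM in DMSO and 80.9 CPM in DAB, a log2 ratio of 0.31 (0.26 to 0.36), higher than DMSO but under the size set for a call. Mafg shares 124 bases with Sirt7 on the same strand, where reads cannot be assigned to a single gene, and Sirt7 itself was at 46.8 and 47.7 CPM. Among the 9 classes in DMSO, the level was highest in intermediate granulocyte-like cells (100.6 CPM) and mature PMN-like cells (93.4 CPM). It was lowest in B cell-like (14.4 CPM) and activated dendritic cell-like cells (25.3 CPM). By cluster, the highest level in DMSO was 133 CPM in cluster P, which has no class name. In DAB, intermediate granulocyte-like cells (114 CPM), chemokine-high granulocyte-like cells (113 CPM) and mature PMN-like cells (111 CPM) had overlapping intervals. Next came macrophage-like cells at 93.6 CPM, immature monocyte-like cells at 74.6 CPM and granulocyte progenitor-like cells at 73.8 CPM. Mature monocyte-like (28.0 CPM), B cell-like (23.1 CPM) and activated dendritic cell-like cells (18.9 CPM) had the lowest levels, again with overlapping intervals between neighbours. By share of its UMIs, immature monocyte-like cells held more Mafg than any other class in both libraries, 21.0% in DMSO and 14.0% in DAB. It was called higher in DAB in 2 of 9 classes. Macrophage-like cells had 56.6 CPM in DMSO and 93.6 CPM in DAB, a log2 ratio of 0.73 (0.35 to 1.11), and chemokine-high granulocyte-like cells, which express Ccl3, Cxcl2 and related chemokines, had 78.6 and 113 CPM, a ratio of 0.52 (0.26 to 0.80). The macrophage-like value was based on 91 UMIs in DMSO and 165 UMIs in DAB. The call in chemokine-high cells was lost under 3 of 7 alternatives: a finer clustering (0.50), no cell cycle regression, and doublets kept (0.36). Within chemokine-high cells, cluster E held most of the DAB cells, 1059 of 1652, and cluster L most of the DMSO cells, 169 of 294. In cluster E Mafg stood at 63.1 CPM in DMSO and 107 CPM in DAB (log2 ratio 0.76), and in cluster L at 108 and 139.7 CPM (0.37). Of 20 clusters with at least 100 cells in each library, Mafg was higher in 3 and lower in none, beside 12.6% of the values of all genes in either direction taken alone.

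**Figure D2:**
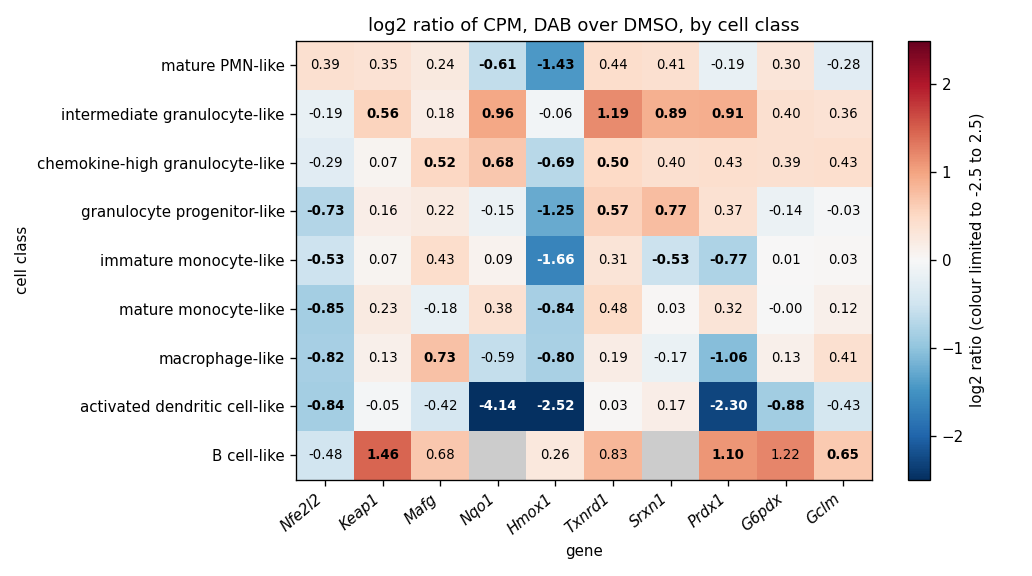
log2 ratio of CPM, DAB over DMSO, for each member (columns) in the 9 cell classes with at least 100 cells in each library (rows), red for higher and blue for lower in DAB, with calls in bold and grey where fewer than 20 UMIs were counted. The Hmox1 and Nfe2l2 columns are blue in most rows, down to -2.52 and -0.85, and the Txnrd1 column holds no value below 0.

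Across the 9 classes, 14 of the members' values were called higher and 19 were called lower in DAB. All 10 members were compared in each class except B cell-like cells, where 8 were. For all genes, the share called higher was by class between 8.2% (chemokine-high granulocyte-like cells) and 24.4% (intermediate granulocyte-like cells), and the share called lower was between 8.25% (B cell-like cells) and 18.7% (mature monocyte-like cells). Intermediate granulocyte-like cells had 5 of 10 members higher and 0 lower, beside 24.4% of genes higher and 11.7% lower. This class was cluster F alone, with 209 cells in DAB and median depths of 6955 UMIs per cell in DMSO and 12705 in DAB. Of the 5 members called there, only Txnrd1 had shares of cells after thinning with separate intervals, 2.22% and 7.25%. Shares of Keap1, Nqo1, Srxn1 and Prdx1 were also higher in DAB, with overlapping intervals. Cluster O, which got no name although 5 of 10 intermediate granulocyte markers were raised in it, went the other way. It had 0 members higher and 3 lower, beside 11.2% of genes higher and 10% lower. Activated dendritic cell-like cells had 5 of 10 members lower and 0 higher, beside 18.3% of genes lower and 10.3% higher. In immature monocyte-like cells 4 of 10 members were lower, beside 18.3% of genes. Members were also called in both directions within single classes, with 3 higher and 1 lower in chemokine-high granulocyte-like cells, beside 8.2% and 11.7% of genes, and 2 higher and 2 lower in granulocyte progenitor-like cells, beside 17.2% and 18.1%. Macrophage-like cells had 1 member higher and 3 lower, beside 10.2% and 12.4% of genes. Mature PMN-like and mature monocyte-like cells had 2 members lower each and none higher, beside 8.56% and 18.7% of genes lower and 13.8% and 16.8% higher. B cell-like cells had 3 members higher and none lower, beside 15.4% of genes higher and 8.25% lower.

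Hmox1 (chr8:75093621-75100589, plus strand), the inducible haem oxygenase that opens the haem ring and frees iron, had the lowest ratio of the members. It stood at 323 CPM in DMSO and 149 CPM in DAB, a 2.17-fold lower level in DAB with a log2 ratio of -1.12 (-1.14 to -1.09). That ratio was at percentile 6.18 of all genes compared. Hmox1 was lower in 7 of 9 classes and in 16 of 20 clusters, while 12.6% of the values of all genes in these clusters were lower. It remained called lower over all cells under every alternative for all cells that was run, by size alone where no interval was available. The log2 ratios were between -1.50 and -0.71.

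Immature monocyte-like cells, marked by Mmp12, Spp1 and Lpl, had 535 CPM of Hmox1 in DMSO and 169.7 CPM in DAB, a log2 ratio of -1.66 (-1.71 to -1.60). This value depended on how the cells were grouped, since the ratio was -0.33 where pathway genes were among the clustering genes. Mature PMN-like cells had 257 and 95.2 CPM (-1.43), with values of -1.54 to -0.74 under the alternatives. The clusters of this class differed in weight between the libraries and in their values: cluster Q, which held 2473198 of 4387709 UMIs of the class in DMSO and 1290590 of 6839453 in DAB, had 341 and 143 CPM (-1.26). Cluster J had 202 and 82.3 CPM (-1.30), and cluster H had 97.0 and 93.98 CPM (-0.05, -0.45 to 0.36), with no call. Granulocyte progenitor-like cells had 206 and 86.5 CPM (-1.25). The lowest ratio was in activated dendritic cell-like cells, marked by Ccr7 and Fscn1, with 159 CPM in DMSO and 27.7 CPM in DAB (-2.52, -2.92 to -2.14). Mature monocyte-like cells had 106 and 59.5 CPM (-0.84), and macrophage-like cells 411 and 235 CPM (-0.80). Both classes with no call had the lowest levels in DMSO: intermediate granulocyte-like cells had 81.6 and 78.1 CPM (-0.06, -0.29 to 0.17), and B cell-like cells 14.4 and 17.3 CPM (0.26, -0.93 to 1.54). Among clusters without a class name, the ratio was -1.82 in cluster D (386 and 109 CPM), whose leading genes are Cstdc5, Stfa1 and other stefin A genes. It was -1.60 in cluster R (434 and 143 CPM), led by Tspan18 and Asgr2, and -0.56 in cluster B (279.8 and 190.1 CPM), led by S100a9 and Ly6g.

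In both libraries the highest Hmox1 level of any class was in chemokine-high granulocyte-like cells, at 759 CPM in DMSO and 469.6 CPM in DAB (log2 ratio -0.69, -0.78 to -0.60). The markers of this class are all chemokine genes, and its granulocyte part rests on S100a8 or Csf3r being above other cells. Cluster E was led by Cxcl3, Cxcl2, Mmp13 and Gpnmb, and cluster L by Ccl3, Atp6v0d2, Mpeg1 and Hcar2. The cells that held most of the transcript differed between the libraries. Immature monocyte-like cells held 40.9% of the Hmox1 UMIs in DMSO and 17.2% in DAB, and chemokine-high granulocyte-like cells 3.98% in DMSO and 28.2% in DAB. Over the same libraries, chemokine-high cells made up 3.26% of DMSO and 15.8% of DAB cells, and immature monocyte-like cells 14.1% and 9.55%. Chemokine-high and intermediate granulocyte-like cells were the classes whose shares of cells differed most between the libraries. Without them the log2 ratio of Hmox1 over the remaining cells was -1.50. Without activated dendritic cell-like and immature monocyte-like cells the ratio was -0.83. With the weight of each cluster held the same in both libraries it was -1.20.

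**Figure D3:**
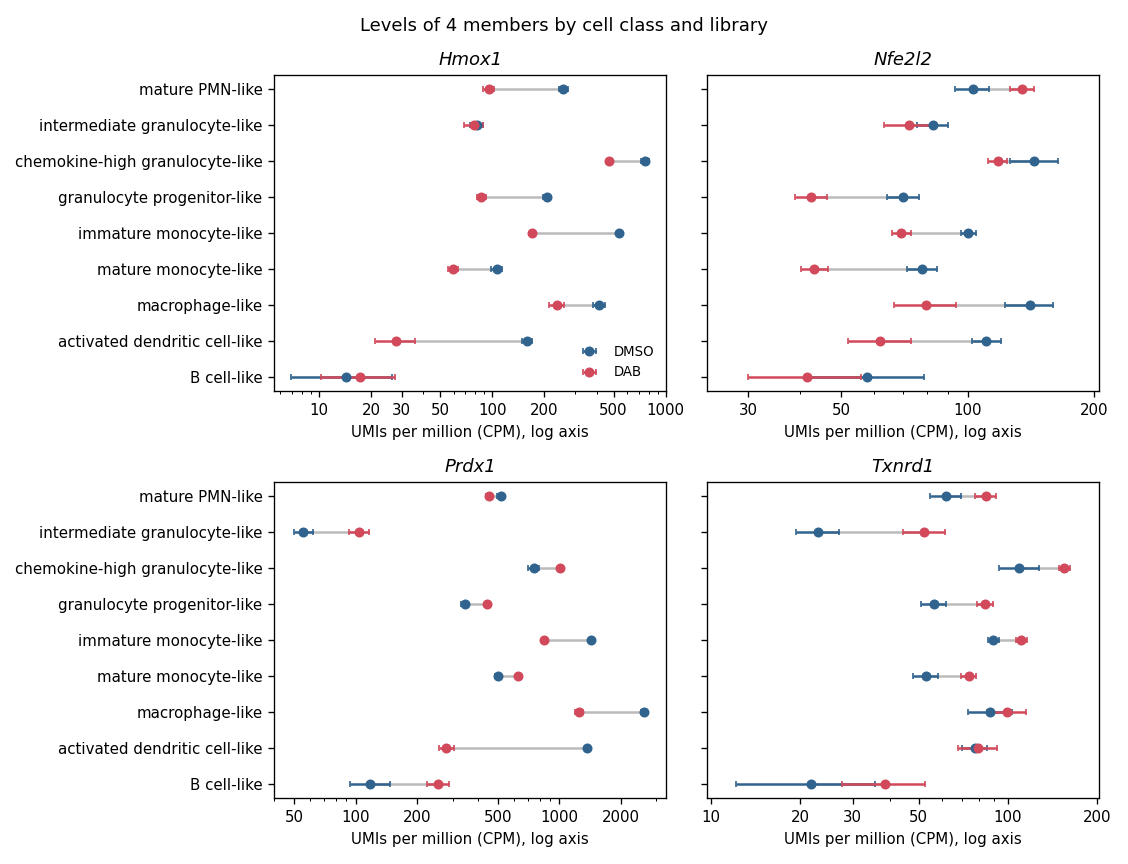
Levels of Hmox1, Nfe2l2, Prdx1 and Txnrd1 in 9 cell classes (rows) in the DMSO (blue) and DAB (red) libraries, in CPM on log axes that differ between panels, with exact Poisson 95% intervals for counting error only and a grey line joining both libraries. Hmox1 is lower in DAB in 8 rows and Nfe2l2 in 8 rows by value, Txnrd1 is higher in all 9, and Prdx1 lies on either side.

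Txnrd1 (chr10:82833951-82897712, plus strand), thioredoxin reductase 1, uses NADPH to keep thioredoxin reduced. Its level was 64.2 CPM in DMSO and 88.5 CPM in DAB, a log2 ratio of 0.46 (0.42 to 0.51), just under the size set for a call and at percentile 82.8 of all genes. Txnrd1 was above DMSO in 9 of 9 classes by value and was called higher in 3 classes and in 9 of 20 clusters, beside 12.6% of the values of all genes in these clusters, and lower in none. Intermediate granulocyte-like cells had 22.9 CPM in DMSO and 52.2 CPM in DAB, a log2 ratio of 1.19 (0.85 to 1.53), the highest of the gene. Granulocyte progenitor-like cells had 56.2 and 83.4 CPM (0.57), and chemokine-high granulocyte-like cells 109 and 155 CPM (0.50). The call in progenitor-like cells was lost without alignment and when doublets were kept (0.00). In chemokine-high cells it was lost at a finer clustering (0.49) and with pathway genes among the clustering genes (0.45). A higher Txnrd1 level in intermediate granulocyte-like cells was called under all 7 alternatives. When each cell was given the same weight, Txnrd1 over all cells passed the size set for a call (0.72), with no interval for this value. Txnrd1 overlaps Eid3 on the same strand over the whole 1305 bases of Eid3, which was at 0.141 and 0.243 CPM.

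Srxn1 (chr2:152105516-152111376, plus strand), sulfiredoxin, repairs overoxidised peroxiredoxins. It was at 17.0 CPM in DMSO and 18.1 CPM in DAB, a log2 ratio of 0.09 (0.00 to 0.18). Behind this even value over all cells lay calls of both signs. Intermediate granulocyte-like cells had 8.41 and 15.6 CPM (0.89, 0.28 to 1.49), and granulocyte progenitor-like cells 8.69 and 14.8 CPM (0.77, 0.35 to 1.20). Immature monocyte-like cells had 23.3 CPM in DMSO and 16.1 CPM in DAB (-0.53, -0.73 to -0.33). The calls in progenitor-like and immature monocyte-like cells were lost when doublets were kept, with ratios of 0.01 and -0.27. In immature monocyte-like cells the call was also lost with pathway genes among the clustering genes (-0.0004). The highest levels of Srxn1 by class were in chemokine-high granulocyte-like cells, 33.2 CPM in DMSO and 43.7 CPM in DAB, where no call was made (0.40).

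Prdx1 (chr4:116685544-116700822, plus strand), a peroxiredoxin that reduces hydrogen peroxide with electrons from thioredoxin, was at 779 CPM in DMSO and 544 CPM in DAB, a log2 ratio of -0.52 (-0.53 to -0.50). The values by class lay on both sides of 0. Activated dendritic cell-like cells had 1373 CPM in DMSO and 279 CPM in DAB (-2.30, -2.42 to -2.18). Macrophage-like cells had 2596 and 1248 CPM (-1.06), and immature monocyte-like cells 1428 and 839 CPM (-0.77), where the ratio was -0.13 with pathway genes among the clustering genes. In intermediate granulocyte-like cells the ratio was on the other side, with 55.4 and 104 CPM (0.91, 0.68 to 1.13), and B cell-like cells had 118 and 254 CPM (1.10). Both of these calls were lost when doublets were kept (0.19 and 0.45). Immature monocyte-like cells held 45.3% of the Prdx1 UMIs in DMSO and 23.3% in DAB, and activated dendritic cell-like cells 10.8% and 0.79%. Without both classes the log2 ratio over the remaining cells was 0.0028. The summed level of 6 activated dendritic cell markers was 466 CPM in DMSO and 125 CPM in DAB, with 4 of 6 lower, and that of 7 immature monocyte markers was 5174 and 4517 CPM, with 5 of 7 lower. The call over all cells was thus lost without these classes. Both had Prdx1 called lower and were left out after the data were seen, so a higher ratio follows from that choice. The activated dendritic cell-like class made up 3.48% of DMSO and 1.13% of DAB cells. The call over all cells was also lost with cluster weights held the same in both libraries (-0.44) and with equal weight for each cell (-0.22). The genome holds near-identical copies of Prdx1, so its counts are uncertain to that extent.

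Nqo1 (chr8:107388225-107403206, minus strand), which reduces quinones by electron pairs, was the member with the fewest UMIs, 973 in DMSO and 1671 in DAB. It was at 10.5 CPM in DMSO and 11.9 CPM in DAB, a log2 ratio of 0.18 (0.06 to 0.29). Intermediate granulocyte-like cells had 12.8 and 24.9 CPM (0.96, 0.49 to 1.44), and chemokine-high granulocyte-like cells 14.1 and 22.6 CPM (0.68, 0.06 to 1.38). Activated dendritic cell-like cells had 46 Nqo1 UMIs in DMSO and 1 UMI in DAB, a log2 ratio of -4.14 with a wide interval of -9.47 to -1.59. Mature PMN-like cells had 10.9 and 7.16 CPM (-0.61, -1.22 to -0.01). That last call did not hold, since the ratio was 0.22 at a coarser clustering and 0.05 without regression of the cell cycle. The call in chemokine-high cells was lost under 4 of 7 alternatives.

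G6pdx (chrX:74409483-74429194, minus strand), glucose 6-phosphate dehydrogenase, makes NADPH in the first step of the pentose phosphate pathway. It was at 84.8 CPM in DMSO and 89.0 CPM in DAB, a log2 ratio of 0.07 (0.03 to 0.11). The only call by class was in activated dendritic cell-like cells, 47.6 and 25.9 CPM (-0.88, -1.32 to -0.46). Gclm (chr3:122245557-122270732, plus strand), the modifier subunit of the enzyme that starts glutathione synthesis, was at 185 CPM in DMSO and 189.8 CPM in DAB, a log2 ratio of 0.03 (0.01 to 0.06). Its highest level by class was in chemokine-high granulocyte-like cells, at 258 and 347 CPM (0.43), under the size set for a call. Both genes were therefore close to even over all cells. The call of Gclm in B cell-like cells, 56.3 and 88.5 CPM (0.65), was lost when doublets were kept (0.25).

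The share of cells in which a member was detected was taken after thinning every cell to 1500 UMIs. Cells of lower depth, 436 in DMSO and 287 in DAB, could not be thinned and were left out. In DMSO, 25.6% of cells had Hmox1 (exact 95% interval 24.7% to 26.6%), and in DAB 17.2% (16.4% to 17.9%). Before thinning, these shares were 55.8% and 51.0%. B cell-like cells, which are not known to use Hmox1 and had median depths of 4005.5 and 4937.5 UMIs, gave 0.781% and 4.00%, a level that free RNA in the droplets can reach. Hmox1 was thus detected in a smaller share of cells in DAB, as well as at a lower level. Immature monocyte-like cells showed the same order, 43.0% in DMSO and 19.3% in DAB, and so did mature PMN-like cells, 16.7% and 10.9%.

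Txnrd1 was found in 7.82% of cells in DMSO (7.26% to 8.41%) and in 12.9% in DAB (12.3% to 13.6%), beside 1.56% and 6.86% of B cell-like cells. Mafg was detected in 11.6% (10.9% to 12.27%) and 12.98% (12.34% to 13.7%), beside 1.56% and 3.43%. These intervals of the libraries did not overlap for either gene. Shares were not taken for all genes, so no background stands beside this. The unthinned shares were 34.2% and 50.5% for Txnrd1 and 43.5% and 55.4% for Mafg, so both genes had the higher share in DAB with and without thinning. The B cell-like shares of both genes were also higher in DAB, with intervals that overlapped between the libraries. How far free RNA enters the shares over all cells was not tested. Srxn1 was detected in 2.29% and 3.49% of cells, 13.7% and 18.5% before thinning. No B cell-like cell had a UMI of Srxn1 after thinning, 0 of 128 in DMSO, which allows a share of up to 2.34%, and 0 of 175 in DAB, which allows up to 1.71%, so the Srxn1 share in DMSO was within this limit. For Prdx1 the share was higher in DAB, 42.2% and 45.0%, while its level was lower, so no order was read from it. Nqo1 was detected in 1.49% and 1.83% of cells, within what 0 cells of the B cell-like group allow in each library. Before thinning, the Nqo1 share in DMSO was 9.18% of all cells and 0% of B cell-like cells, and in DAB 11.9% and 1.06%. Intervals of Nfe2l2, Keap1, Nqo1, G6pdx and Gclm overlapped between the libraries.

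**Figure D4:**
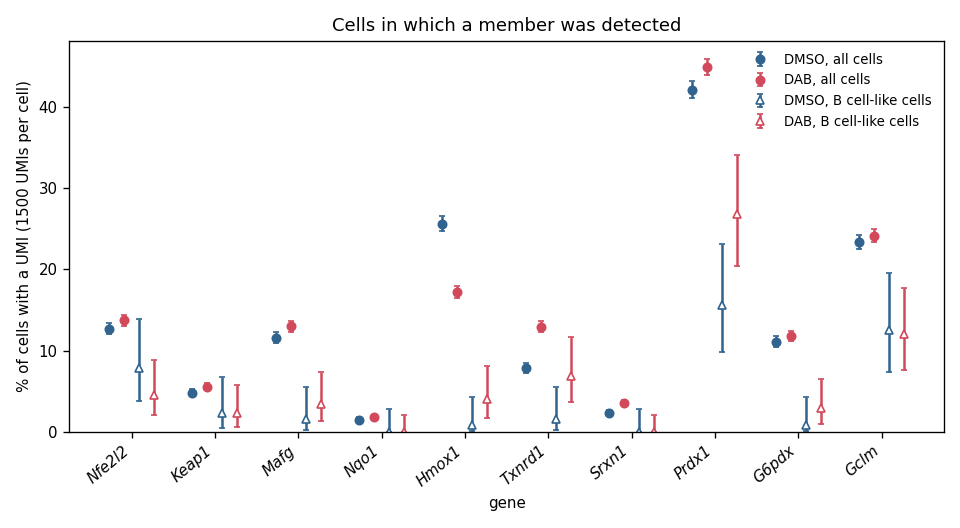
Share of cells with at least 1 UMI of each member after thinning to 1500 UMIs per cell, for all cells (filled circles) and for B cell-like cells (open triangles) in DMSO (blue) and DAB (red), with exact binomial 95% intervals for counting error only. Hmox1 is the member with a clearly lower share in DAB, 17.2% against 25.6%, and Txnrd1 goes from 7.82% to 12.9%.

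A set of 7 lists with 73 further genes of the pathway, chosen by their roles, put the members in context. Of these, 71 had at least 20 UMIs, 8 were higher and 13 were lower in DAB, that is 11.3% and 18.3%, beside 13.6% and 16.6% of all genes. Their median log2 ratio was -0.06. The lists as a whole were therefore near the background, and they differed from each other in their counts.

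Haem and iron genes had the lowest median, -0.51, with 5 of 9 genes compared lower and none higher. Blvrb, which encodes a reductase of flavins and biliverdin, was at 346 CPM in DMSO and 157 CPM in DAB (log2 ratio -1.14). Blvra, which encodes the main reductase of the biliverdin that haem oxygenase makes, was at 32.0 and 33.3 CPM (0.06), with no call. Ferritin genes, whose proteins store the freed iron, differed: Ftl1 was at 11963 CPM and 7487 CPM (-0.68) and Fth1 at 18444 CPM and 19924 CPM (0.11), with counts that near-identical pseudogenes make uncertain. The haem transporter gene Slc48a1 was lower as well, 156 and 109.6 CPM (-0.51), as were the iron exporter gene Slc40a1, 15.3 and 8.62 CPM (-0.83), and Hebp1, which encodes a haem-binding protein, 13.4 and 3.79 CPM (-1.83). Hmox2, the constitutive haem oxygenase gene, was at 96.8 and 87.0 CPM (-0.15). Hmox2, Blvra, Fth1 and Fech, the ferrochelatase gene (11.3 and 8.85 CPM, -0.36), thus gave no call. Of 6 macrophage markers, 5 were lower, with summed levels of 193 CPM in DMSO and 162 CPM in DAB, and of 7 immature monocyte markers 5 were lower, with 5174 and 4517 CPM. Their part in the haem and iron result was not tested. Slc48a1, Slc40a1, Hebp1, Ftl1, Hmox2, Blvra and Fech were picked out after their values were seen.

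Quinone and xenobiotic reduction genes had 1 of 10 higher and 4 lower. Ptgr1, which reduces reactive lipid carbonyls, was at 58.1 CPM in DMSO and 36.7 CPM in DAB (-0.66), and Osgin1 was at 14.8 and 23.2 CPM (0.65). In the glutathione list, 1 of 15 was higher and 2 were lower. The cystine importer gene Slc7a11 was at 96.1 CPM in DMSO and 167 CPM in DAB (0.79), and Mgst1, a membrane-bound glutathione transferase gene, at 275 and 117 CPM (-1.23). The thioredoxin list had 2 of 14 higher and none lower, with Txn2, mitochondrial thioredoxin, at 69.2 and 114 CPM (0.73), and Txnip, the inhibitor of thioredoxin, at 385 and 276 CPM (-0.48). Genes that supply NADPH were nearly even, with none of 7 higher and 1 lower, from Tkt at 409 and 343 CPM (-0.25) to Pgls at 208 and 218 CPM (0.07) among the more abundant of them.

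In the list of the KEAP1 ligase and NRF2 turnover, 1 of 7 genes was higher and none lower. Sqstm1, which encodes p62, a protein that draws KEAP1 into autophagy and is itself an NRF2 target, was at 208 CPM in DMSO and 386 CPM in DAB, a log2 ratio of 0.89 (0.87 to 0.92). Cul3, the scaffold of the ligase, was at 71.9 and 65.4 CPM (-0.14). Of 9 CNC and MAF factor genes, 3 were higher. Nfe2l1, a relative of NRF2, was at 34.6 and 55.7 CPM (0.69). The small MAF genes Maff, at 18.3 and 16.5 CPM (-0.14), and Mafk, at 5.55 and 6.86 CPM (0.31), gave no call, and neither did Bach1, which encodes the repressor that competes with NRF2 for small MAF proteins, at 27.1 and 26.9 CPM (-0.01). These 3 were also picked out after their values were seen.

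**Figure D5:**
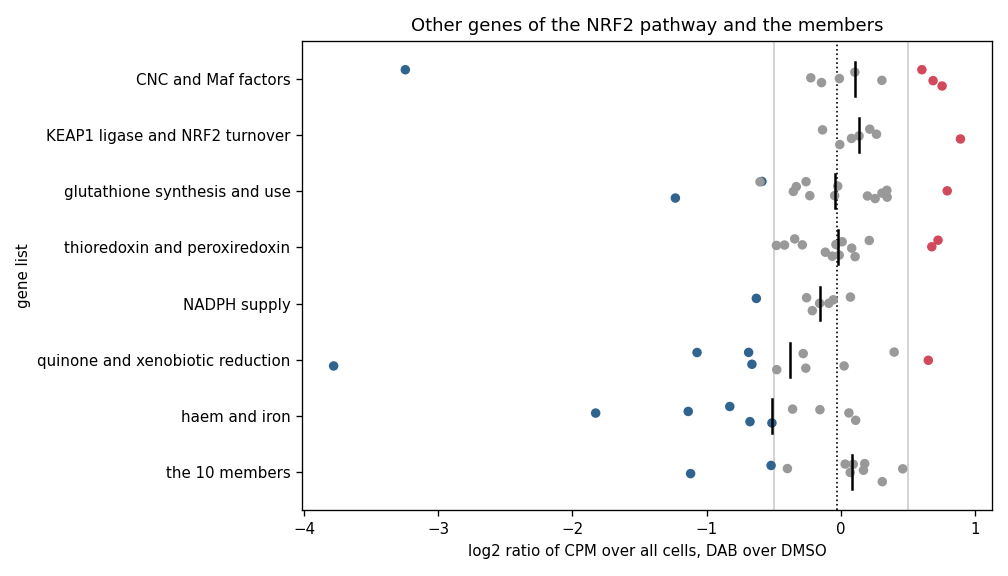
log2 ratio of CPM over all cells, DAB over DMSO, for each gene compared in the 7 lists and for the 10 members, with calls of higher in red, lower in blue and none in grey, black bars for the medians, the dotted line for the median of all genes and grey lines at -0.5 and 0.5. The haem and iron list lies furthest to the left, with a median of -0.51, and the members lie around 0.08.

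The pattern of each gene over cells was compared by Pearson correlation of log2(CPM + 10) over 40 values, 1 per library in each of 20 clusters, among 5891 genes. These values share libraries and depth, so the coefficients are descriptions. The genes most like Mafg were Vsir (r = 0.91), Msra (0.91), Cd33 (0.90), Cap1 (0.90) and Gm38575 (0.89). Those most like Nfe2l2 were Atp6v1b2 (0.90), Clcn7 (0.90), Plekho2 (0.86), Mdm2 (0.86) and Atg5 (0.85). Those most like Hmox1 were Ptgr1 (0.91), Psap (0.87), Esd (0.86), Ftl1 (0.86) and Ftl1-ps1 (0.86). Among the members themselves, coefficients ran from -0.17 for Mafg with Prdx1 to 0.76 for Hmox1 with Gclm, with 0.74 both for Txnrd1 with Srxn1 and for Mafg with G6pdx. Nfe2l2 and Keap1 had a coefficient of 0.06. The SD over these values was largest for Hmox1 (1.17) and Prdx1 (1.09), beside 0.69 for Mafg and 0.54 for Nfe2l2.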

How the data were processed

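Bone marrow-derived MDSCs were profiled with the 10x Genomics 5′ v2 kit, 1 library per condition. The deposited values are raw counts of UMIs, which the authors obtained with Cell Ranger 7.0.0 and the mm10 build, with no normalization. The submitters' processing notes also name Seurat 4.3.0 and R 4.1.2. The authors' cluster labels and comparisons were not used here. The deposited DMSO and DAB matrices held 9855 and 11631 barcodes with 106792967 and 165506902 UMIs.

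Barcodes over 10% mitochondrial UMIs were left out (55 and 89). None of the others lay more than 4 median absolute deviations above the median in UMIs or genes. Barcodes with low values were not filtered by this rule. A score against simulated doublets, 2 per barcode, removed the highest 0.8% per 1000 barcodes (768 and 1066), so their number was fixed by rate. Pearson residuals (theta 100) of 3000 variable genes, without the members and the 73 list genes, had cell cycle and mitochondrial scores regressed out. They were reduced to 40 components, aligned by mutual nearest neighbours and clustered with Leiden at resolution 0.9, using 20 neighbours. The aligner was written for this purpose in place of FastMNN. A class name was given only where 3 or more of its markers reached a log2 fold of 1. In addition, no other class could have as many markers in the 10 leading genes. Further conditions concerned the share of markers raised, granulocyte genes and depth. They left clusters O (5 of 10 markers raised) and Z (4 of 5 raised) unnamed, although both met the conditions before them. The naming rule was set after the clusters were seen. Mature PMN-like cells joined clusters H, J, Q and W (the most cells in H in DMSO, 359 of 856, and in J in DAB, 702 of 1683), chemokine-high cells E and L, granulocyte progenitor-like cells M and X, and the other classes 1 cluster each.

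UMIs were summed per library. Ratios carry exact conditional binomial intervals, levels exact Poisson intervals and shares Clopper-Pearson intervals, all at 95%. Genes needed 20 summed UMIs, and classes and clusters 100 cells in each library. Basophil or mast cell-like cells, 69 in DMSO, were not compared. No test was made, because each condition had 1 library. The calculation was tested on simulated data.

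The members and lists were chosen with earlier results of these data known. The text names all members, from each list the genes of highest and lowest ratio with at least 20 CPM in a library, and for Mafg, Nfe2l2 and Hmox1 the 5 genes most like each. A result in the list of CNC and MAF factors is not reported here. Motifs were chosen after values were seen. Coordinates are from GENCODE M21 (GRCm38). For 10 of 11 promoter windows, the transcribed bases were found in an annotated transcript, and the start used for Nfe2l2 lies upstream of the annotated one.

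Alternatives were all barcodes, no doublet removal, and scaling by the median of ratios (over all cells or within a class) or without the 20 most abundant genes. Others were a mean over cells, cluster weights held the same in both libraries, a log2 ratio of 1 and a minimum of 200 UMIs. Clustering was repeated at Leiden 0.5 and 1.5, with no alignment, with no cell cycle regression and with pathway genes among the clustering genes. Shares were also taken with no thinning and with thinning to 3000 UMIs. Each cluster weight was the mean of its UMI shares in both libraries, among clusters with at least 20 cells in each library. The mean over cells and the weighted clusters had no interval, so size alone made a call. Leaving out cell classes was added after the data were seen. Python 3.11.15, numpy 2.4.6, scipy 1.17.1, pandas 2.3.3, scikit-learn 1.9.0, igraph 0.11.9, leidenalg 0.10.2 and matplotlib 3.10.9 were used, with seed 1.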

Additional observations from a re-analysis of the deposited data

Results flagged for a closer look

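Members with calls in both directions among cell classes are listed here, and the differences between classes were not tested. The log2 ratio of Nqo1 in intermediate granulocyte-like cells (0.96) exceeded that in activated dendritic cell-like cells (-4.14) by 5.10, a value that rests on 1 UMI in the DAB cells of the latter. For Prdx1, the ratio in B cell-like cells (1.10) exceeded that in activated dendritic cell-like cells (-2.30) by 3.40. For Srxn1, the ratio in intermediate granulocyte-like cells (0.89) exceeded that in immature monocyte-like cells (-0.53) by 1.42. The immature monocyte-like call was lost under 2 of 6 alternatives.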

How the results depend on the processing

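No paired analysis was possible because each condition had 1 library. Of the values that sum up a comparison, 79 under the alternatives stayed within the limits set for them and 15 moved. Of the values for single members, 516 stayed, 144 moved and 3 that had been called changed direction. A change of sign in a value without a call was not counted as a change of direction. Such changes occurred, as for Gclm over all cells, with log2 ratios from -0.11 to 0.06. With a mean over cells there was no interval, so size alone made a call. Then 2 members were higher (Txnrd1 and Srxn1) and 1 was lower (Hmox1), and 7 list genes were lower. Of the 16308 genes compared, 3513 were higher, beside 2212 in the main analysis with its interval. With cluster weights held the same in both libraries, again by size alone, 1 member was lower. At a log2 ratio of 1, 1 member was lower, and 0 list genes were higher and 6 lower. Of the 16308 genes compared, 875 were then higher and 1160 lower, beside 2212 and 2715 in the main analysis. With at least 200 UMIs, fewer genes were compared and 1770 were lower, beside 2715 in the main analysis. Without activated dendritic cell-like and immature monocyte-like cells, 1 member was higher (Txnrd1, 0.64) and 1 lower (Hmox1), and Prdx1 turned to 0.0028. Without alignment, 12 class values of members were lower. Where a member count stands alone, the share of all genes called in that setting is not given. Such counts are therefore not set against a background. With no thinning, 9 members had a share of cells in DAB whose interval lay above that in DMSO, beside 4 with thinning. The DAB cells were deeper, with a median of 9489 UMIs beside 7524.5 in DMSO. Shares were not taken for all genes, so neither number is read as a result about the members. Nqo1 in mature PMN-like cells turned to 0.22 at Leiden 0.5 and to 0.046 without cell cycle regression. The causes were not tested. Of the 33 calls by class, 17 were kept under all alternatives in which the class was found, among them Hmox1 in 6 classes. Scaling by the median of ratios gave a median of -0.05 for the pathway lists, beside -0.06. The depth limits Nqo1 and Srxn1 most, and no value here measures the spread between cultures.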
